A study of Mus musculus with 6 samples.

Results

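The genes described here encode the enzymes and transporters that build and sulfate glycosaminoglycans, the long sugar chains of cartilage proteoglycans. They were chosen by name, as 44 genes of the linker, chondroitin, heparan, sulfate supply and sugar nucleotide supply steps, and all 44 were found among the 43346 genes of the deposited table. RNA was sequenced from primary epiphyseal chondrocytes of 3 Girk3-null (Girk3-/-) and 3 wild type mice, and p-values measure the spread between these libraries. All were 5 days old, of C57BL/6 strain and labelled male, and the labels give no treatment. Girk3, a subunit of G protein-gated potassium channels, is encoded by Kcnj9, and the labels do not limit its loss to any cell type. Cells were freed from cartilage with collagenase II, with no sorting step in the labels, and were compared to see which transcripts differ by genotype.

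Glycosaminoglycan chains are assembled in the Golgi apparatus on serines of core proteins such as aggrecan. A short linker of xylose, galactose and glucuronic acid is laid down first, and the next sugar commits the chain to chondroitin or to heparan. Sulfotransferases then decorate the chain with sulfate taken from an activated donor, PAPS, that is made in the cytosol and carried into the Golgi. Cartilage is rich in chondroitin sulfate, whose negative charge holds water, and loss of Slc26a2, Papss2, Chst11, Slc35d1 or Impad1 disturbs skeletal growth in mice.

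Total counts ranged from 34279516 to 60392837 in Girk3-null and from 42252651 to 50361885 in wild type libraries. Kcnj9 had 0 counts in all 6 libraries and could not be used to check the genotypes. Girk3-null replicate 1 stood apart from the others: 4 Y-linked genes together had 16088 counts there and 0 to 7 elsewhere, while Xist had 19 counts there and at least 67346 elsewhere. The other 5 libraries thus went against the label of male sex. Counts of differing members are therefore also given without it, as are the values that it moved by over 1.5 times for members described in full, Fam20b excepted. All 15 tested chondrocyte markers were detected in every library, with a summed level of 82361 to 130582 CPM (counts scaled by library size and TMM factors) in Girk3-null libraries, against 53638 to 89152 CPM in wild type libraries. Col2a1, the main collagen of cartilage, took 5.04% to 8.25% of counts in Girk3-null and 3.12% to 5.33% in wild type libraries. No tested marker of another cell type was at 0 in any library. Summed over each list, endothelial markers (12 tested) measured 57.0 to 153 CPM in Girk3-null libraries, against 188 to 276 CPM in wild type libraries. Skeletal muscle markers (12 tested) measured 19.3 to 33.1 CPM in Girk3-null libraries, against 36.8 to 76.9 CPM in wild type libraries. Erythroid markers (12 tested) measured 57.0 to 162 CPM in Girk3-null libraries, against 79.7 to 282 CPM in wild type libraries. Macrophage and leukocyte markers (11 tested) measured 154 to 289.6 CPM and stromal fibroblast markers (10 tested) 7379 to 9824 CPM in Girk3-null libraries, against 183 to 276 CPM and 7861 to 9801 CPM in wild type libraries. Proliferation genes (12 tested) measured 155.8 to 199 CPM in Girk3-null libraries, against 248 to 427 CPM in wild type libraries. In bulk RNA, fewer cells of a type and less RNA per cell cannot be told apart.

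Promoter sequences are shown for Chst11 and Chst12, a pair of chondroitin sulfotransferases, of which Chst12 had the largest difference among the 43 tested members, and for Papss2, the most abundant transcript of the set. Each runs from 250 bases before to 50 bases after a RefSeq transcript start on build GRCm38.p6, on the plus strand, written 5′ to 3′. Capitals mark the GC box GGGCGG on either strand.
Chst11, chr10:82985247-82985546: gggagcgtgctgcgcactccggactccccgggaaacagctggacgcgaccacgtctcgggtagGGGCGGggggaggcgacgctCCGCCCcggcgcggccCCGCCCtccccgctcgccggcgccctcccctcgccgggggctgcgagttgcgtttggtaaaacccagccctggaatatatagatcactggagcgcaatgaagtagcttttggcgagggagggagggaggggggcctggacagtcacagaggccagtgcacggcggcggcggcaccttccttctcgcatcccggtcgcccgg
Chst12, chr5:140505359-140505658: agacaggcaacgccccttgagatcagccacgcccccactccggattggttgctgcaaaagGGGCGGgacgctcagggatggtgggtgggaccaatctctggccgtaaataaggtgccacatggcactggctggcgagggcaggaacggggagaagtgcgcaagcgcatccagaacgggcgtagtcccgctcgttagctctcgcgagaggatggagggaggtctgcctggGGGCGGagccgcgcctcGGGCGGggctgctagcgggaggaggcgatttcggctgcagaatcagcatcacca
Papss2, first start, chr19:32595465-32595764: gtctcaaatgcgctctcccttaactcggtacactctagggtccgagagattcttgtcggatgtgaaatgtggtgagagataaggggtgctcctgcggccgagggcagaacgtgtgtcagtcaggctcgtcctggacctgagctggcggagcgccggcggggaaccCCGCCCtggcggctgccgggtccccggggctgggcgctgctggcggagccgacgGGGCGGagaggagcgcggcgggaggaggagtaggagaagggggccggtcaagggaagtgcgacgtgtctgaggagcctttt
Papss2, second start, chr19:32619755-32620054: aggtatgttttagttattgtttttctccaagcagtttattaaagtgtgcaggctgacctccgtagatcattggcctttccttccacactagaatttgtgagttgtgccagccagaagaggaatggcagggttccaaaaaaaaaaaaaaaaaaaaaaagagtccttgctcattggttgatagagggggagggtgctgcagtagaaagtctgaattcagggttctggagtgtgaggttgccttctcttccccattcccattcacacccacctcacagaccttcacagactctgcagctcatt
The Chst11 and Chst12 promoters each held 3 GC boxes, with a GC content of 71.0% and 65.0%. The starts of Papss2 differed in composition. The first held 2 GC boxes at 66.3% GC, with an observed to expected CpG ratio of 0.876, and the second held 0 GC boxes at 44.3% GC, with a ratio of 0.0679. The position of Papss2 in the deposited table begins at 32620005, which is the second start. RefSeq promoters matched 35 of the 44 genes, with 44 promoters in all, since several genes have more than 1 start. None matched Xylt1, Csgalnact1, Chsy3, Ext1, Extl3, Ndst1, Sulf1, Slc26a2 or Impad1. Their median GC content was 66.2%, against 52.7% over all 32851 promoters. The GC box GGGCGG, on either strand, lay in 30 of 44 promoters (68.2%), against 35.7% of all promoters. TATAAA, the TATA box, lay in 3 (6.82%, against 13.6% of all), and ACAATG, a form of the SOX protein motif, lay in 2 (4.55%, against 12.6% of all), both also counted on either strand. All promoters were counted whatever the expression of their genes, so the shares are not matched to the level of the set. A match is a description of the letters in this window.

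The set was well expressed in Girk3-null and wild type libraries alike. Compared per length as RPKM (reads scaled to gene length and library total), the median of the 43 genes that passed the filter on low counts was 14.7 RPKM over the 6 libraries, against 3.95 RPKM over all 17554 genes tested. The median member stood at the 79.7th percentile of genes tested, 7 members stood at or above the 90th percentile, and 29 had a mean of at least 10 RPKM. The highest means were 94.5 RPKM for Papss2, 82.2 for Chst11, 69.6 for Ugdh and 63.0 for Xylt1. In the order of levels Papss2 was above Chst11 in 6 of 6 libraries, Chst11 above Ugdh in 5 and Ugdh above Xylt1 in 4, and the ranges of these neighbours overlapped. Xylt1 was above the next gene, Chsy1 (33.8 RPKM), in 6 of 6 libraries with ranges that did not overlap. Below it every neighbouring pair down to Extl2 (4.72 RPKM) had overlapping ranges, while those of Extl2 and Ust (2.26 RPKM) did not overlap. The lowest of those tested were Hs6st2 (0.978 RPKM) and Chst7 (0.948 RPKM), whose ranges overlapped. Chst13, another chondroitin 4-O-sulfotransferase, had 0 to 2 counts in Girk3-null and 1 to 4 counts in wild type libraries and was not tested; a library at 0 leaves room for up to 3 counts, from counting error only.

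**Figure D1:**
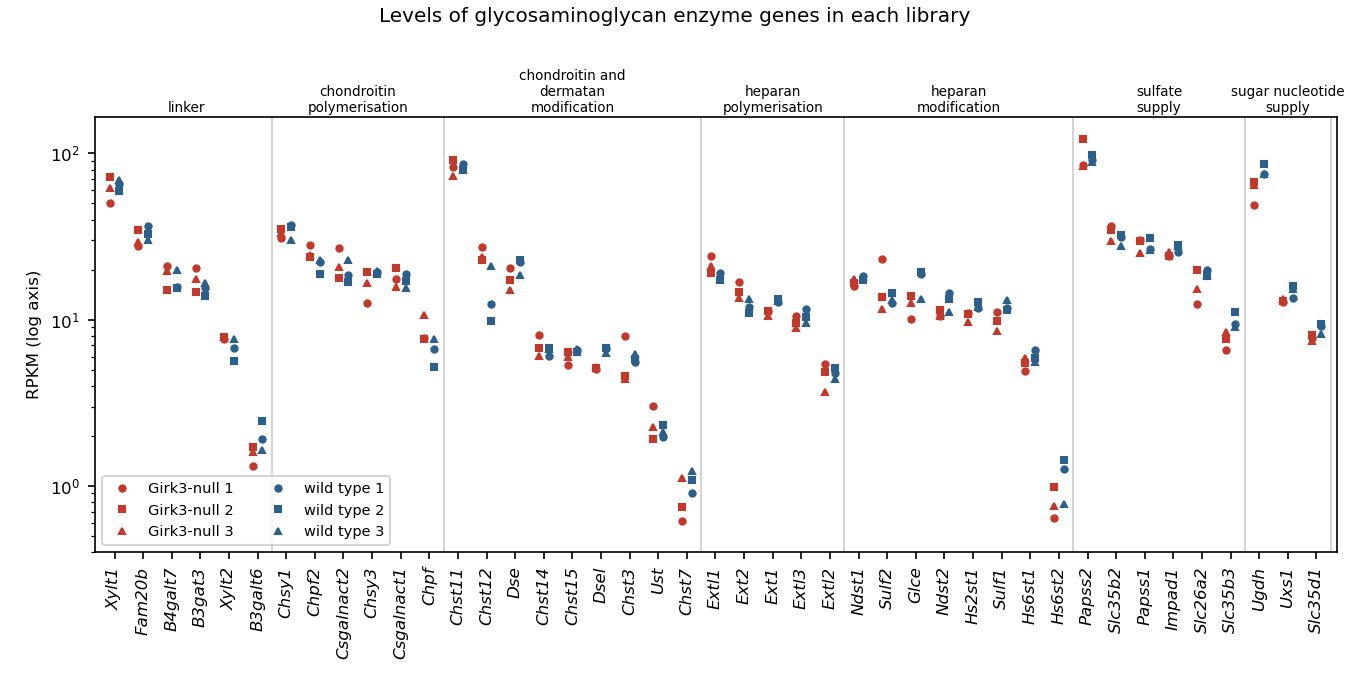
RPKM (log axis) of the 43 tested genes by role; red marks the 3 Girk3-null and blue the 3 wild type libraries, with a marker shape per replicate. Papss2, Chst11, Ugdh and Xylt1 are highest, Hs6st2 and Chst7 lowest, and for most genes the genotypes lie on top of each other.

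No gene of the set passed the test between genotypes. In edgeR's quasi-likelihood test, adjusted over all genes, 0 of 43 members passed at 0.05 (smallest adjusted p = 0.291), against 1 of 17554 genes (0.0057%). At an unadjusted p under 0.05 there were 8 members, against 14.5% of all genes. Of these, 6 were higher (7.49% of all genes were) and 2 lower (7.02% of all genes were) in Girk3-null libraries. DESeq2 called 0 of 43 members and 2.23% of genes with an adjusted p, and limma-voom called 0 of 43 members and 0.0% of genes. The median log2 fold change of the 43 members was 0.01, with 22 positive and 21 negative. Over all genes tested the median was 0.01 and 51.8% were positive. When scaled by library totals alone, the members' median was -0.10 with 17 positive. That over all genes was -0.09 with 6809 of 17554 positive, so directions are given relative to TMM scaling. With that scaling the medians of chondroitin modification (-0.05), heparan polymerisation (-0.04) and sulfate supply (-0.06) turned sign. The medians of the linker genes (0.03, with 3 of 6 positive), chondroitin polymerisation (0.12), heparan modification (-0.23) and sugar nucleotide supply (-0.20) kept their sign. The log2 fold changes ran from -0.43 to 0.85. Those of 2 members were at least 0.5 in size, against 17.6% of all genes.

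Groups did not overlap for 9 of 43 members (20.9%), against 20.0% of all genes. Of these, 5 had their lowest Girk3-null value above the highest wild type value (Chst12, Ext2, Extl1, Chpf2 and Slc35b2), against 9.86% of all genes, and 4 the reverse (Dsel, Ugdh, Ext1 and Slc35d1), against 10.2% of all genes. Without Girk3-null replicate 1 the edgeR test called 0 of 43 members, and the groups did not overlap for 14, against 28.3% of all genes. The members added there were Xylt2, Chsy1, Chst3, Dse and Sulf1. The 95% interval of the log2 fold change lay within 0.5 either way for 20 members and within 1 either way for 41. Over all genes tested these intervals were as narrow for 30.5% and 68.4%. The exceptions to the wider bound were Chst12 and Chpf, whose intervals reached 1.498 and 1.003 at their upper ends.

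**Figure D2:**
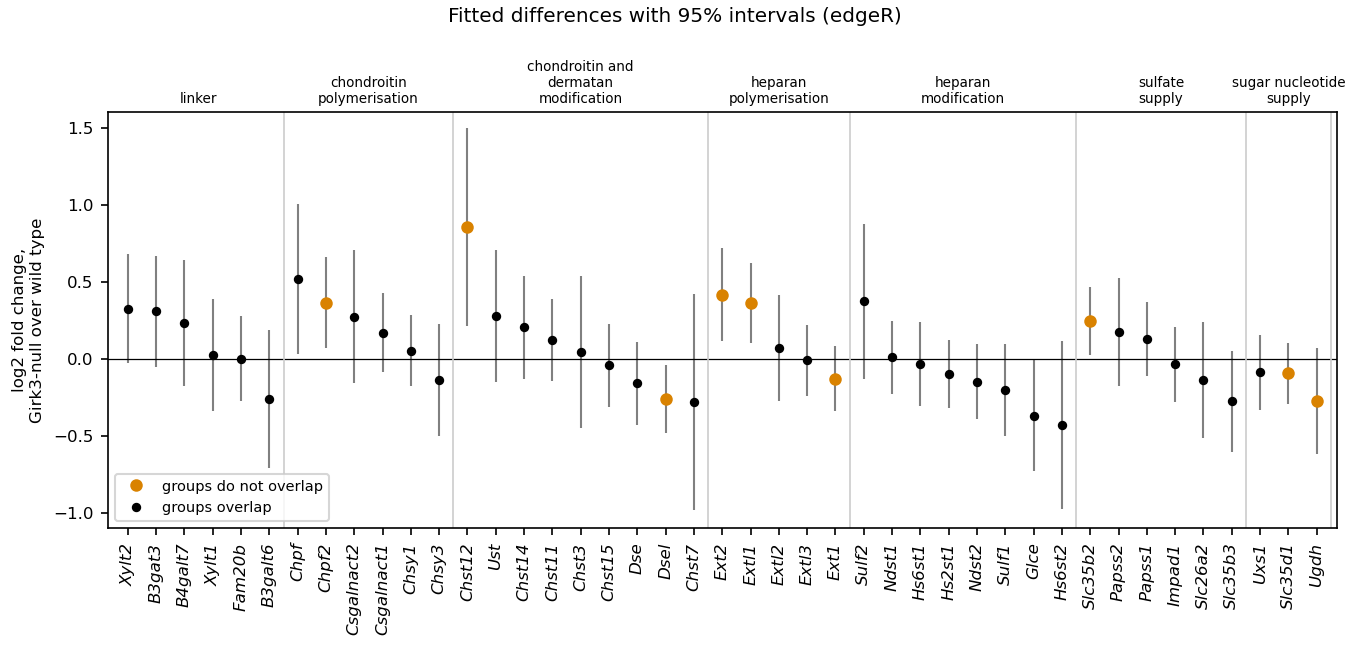
Log2 fold change, Girk3-null over wild type, for the 43 tested genes by role, with 95% intervals from edgeR; orange marks genes whose groups do not overlap. Chst12 is highest at 0.85 and most others lie within 0.5 of 0.

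The linker enzymes showed small differences, with 4 of 6 positive, a median log2 fold change of 0.13 and none past the test (smallest adjusted p = 0.366 in edgeR). Xylt1 (ENSMUSG00000030657; chromosome 7, 117380979 to 117667751, mm10) encodes a xylosyltransferase, which starts chains by adding xylose to the core protein. It measured 197, 282 and 252 CPM in the Girk3-null libraries, against 234, 210.1 and 275 CPM in the wild type libraries. The groups overlapped, and the fold of 1.02 had a 95% interval of 0.792 to 1.31. Its direction was not stable, since the log2 fold change of 0.02 was -0.08 with library totals and -0.11 with a term for the title numbers. Without Girk3-null replicate 1 it was 0.16. Xylt2, the second xylosyltransferase, measured 31.1, 32.05 and 33.7 CPM in Girk3-null libraries, against 25.2, 20.7 and 31.5 CPM in wild type libraries. Wild type replicate 3 lay inside the Girk3-null range (log2 fold change 0.32, standard error 0.16, adjusted p = 0.366 in edgeR). Its log2 fold change was 0.19 without wild type replicate 2 and 0.49 without wild type replicate 3. B3gat3, which adds the glucuronic acid that closes the linker, measured 33.6, 24.3 and 30.1 CPM in Girk3-null libraries, against 23.1, 20.6 and 27.4 CPM in wild type libraries. The groups overlapped (log2 fold change 0.31, standard error 0.16, adjusted p = 0.387 in edgeR), and leaving out Girk3-null replicate 1 gave 0.20. Fam20b, the kinase that phosphorylates the linker xylose, averaged 278.6 ± 32.7 CPM in Girk3-null libraries, against 278.8 ± 18.8 CPM in wild type libraries (SD, n = 3 each). Its log2 fold change of -0.0007 ran from -0.11 to 0.08 over the alternatives. The galactosyltransferases B4galt7 and B3galt6 had 0.23 and -0.26, with adjusted p = 0.543 and 0.528 in edgeR.

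Among the chondroitin chain builders 5 of 6 were positive, with a median log2 fold change of 0.22. Chsy1, the chondroitin synthase with the highest level here, measured 132, 151 and 147 CPM in Girk3-null libraries, against 146, 139 and 130.1 CPM in wild type libraries. The groups overlapped, and the fold was 1.04 with a 95% interval of 0.883 to 1.22. Its log2 fold change of 0.05 was 0.11 without Girk3-null replicate 1. Its polymerising partner Chpf2 (chromosome 5, 24586741 to 24594395, mm10) measured 154, 132 and 140.4 CPM in Girk3-null libraries, against 112, 93.5 and 126 CPM in wild type libraries. Every Girk3-null value was above every wild type value (log2 fold change 0.36, standard error 0.13, adjusted p = 0.299 in edgeR). In GENCODE M21, 44.1% of the exon bases of Chpf2 are shared with Smarcd3 on the opposite strand. A further 1.75% are shared with Mir671 on the same strand. Over all libraries Smarcd3 had 1696 counts, Mir671 had 778 and Chpf2 had 34930. The strand setting of the counts is not given in the sources used here, and the part of these overlaps in the Chpf2 counts was not tested. Chpf, the other polymerising factor, measured 30.4, 30.3 and 43.8 CPM in Girk3-null libraries, against 24.0, 18.4 and 30.6 CPM in wild type libraries. Wild type replicate 3 overlapped the Girk3-null group (log2 fold change 0.52, standard error 0.21, adjusted p = 0.328 in edgeR). The value for Chpf was 0.32 when Girk3-null replicate 3 was left out. The others were Csgalnact1 (0.17) and Csgalnact2 (0.27), which add the first chondroitin sugar, and the synthase Chsy3 (-0.14), with adjusted p of 0.487, 0.501 and 0.694 in edgeR. Leaving out Girk3-null replicate 1 gave 0.11 for Csgalnact2 and 0.03 for Chsy3, whose sign turned.

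The enzymes that sulfate and epimerise chondroitin held the largest difference of the set. Of 9 tested members 5 were positive, with a median log2 fold change of 0.04. Chst12 (ENSMUSG00000036599; chromosome 5, 140505550 to 140525724, mm10) encodes a chondroitin 4-O-sulfotransferase. It measured 66.3, 55.3 and 59.8 CPM in the Girk3-null libraries, against 27.7, 21.4 and 51.3 CPM in the wild type libraries. There was no overlap, but wild type replicate 3 stood close to the Girk3-null libraries and far from the other wild type libraries. The mean was 60.4 ± 5.53 CPM in Girk3-null libraries, against 33.5 ± 15.8 CPM in wild type libraries (SD, n = 3 each). The fold was 1.81 with a 95% interval of 1.16 to 2.83, for a log2 fold change of 0.85 (standard error 0.28, adjusted p = 0.291 in edgeR). Over the alternatives the adjusted p ran from 0.0411 to 0.814. Without wild type replicate 3 the log2 fold change was 1.30 and the test was passed (adjusted p = 0.0411 in edgeR). In that fit 74 of 18040 genes (0.41%) and 1 of 43 members passed. Leaving out Girk3-null replicate 1 gave 0.79 (adjusted p = 0.514 in edgeR).

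The numbers in the sample titles fall below 200 in Girk3-null replicate 1 and wild type replicates 1 and 2, and above 200 in the other 3 libraries, and the labels do not say what they stand for. On each side of that split 1 genotype has a single library, so the differences within a side have no test. The fit without wild type replicate 3, which Chst12 passed, has no wild type library above 200. Genotype and title number are thus partly confounded in that fit. The only Girk3-null library below 200 is replicate 1, the one with Y-linked counts and few Xist counts. On that side genotype cannot be told apart from this difference, for any gene. Within the libraries below 200 the mean log2 CPM of Chst12 was higher by 1.44 in Girk3-null than in wild type, and within those above 200 by 0.16. With a term for the title numbers the log2 fold change was 0.80 (adjusted p = 0.383 in edgeR). Chondrocyte markers summed to 82361, 116205 and 130582 CPM in Girk3-null replicates 1, 2 and 3, where Chst12 was highest in replicate 1. They summed to 69666, 53638 and 89152 CPM in wild type replicates 1, 2 and 3, where Chst12 was highest in replicate 3. The part of the marker level in the difference was not tested. Other genes described in full also differed between the sides. The log2 differences below and above 200 were 0.45 and 0.06 for Xylt2, 0.62 and -0.02 for B3gat3, and 0.59 and 0.11 for Chpf2. They were -0.94 and 0.16 for Hs6st2, 0.91 and -0.03 for Sulf2, and -0.59 and -0.16 for Ugdh. Chst3 had 0.62 and -0.45, Slc26a2 -0.49 and -0.04, Extl1 0.54 and 0.22, and Chpf 0.53 and 0.25. Slc35b3 had -0.51 and -0.15, Fam20b -0.19 and 0.11, and Xylt1 -0.17 and -0.04. Differences were smaller for Chst11 (0.13 and 0.07) and Slc35d1 (-0.14 and -0.05). The larger difference was above 200 for Chsy1 (-0.11 and 0.19), Papss2 (-0.02 and 0.21), Ndst1 (-0.02 and -0.06) and Ext1 (-0.08 and -0.22).

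Chst11, the main chondroitin 4-O-sulfotransferase of cartilage (ENSMUSG00000034612; chromosome 10, 82985498 to 83195900, mm10), stood at a higher level. It measured 469, 522 and 429.7 CPM in Girk3-null libraries, against 448, 409 and 451 CPM in wild type libraries, and the groups overlapped. The fold was 1.09 with a 95% interval of 0.902 to 1.31 (adjusted p = 0.638 in edgeR). Within each library Chst11 RPKM was 3.03, 4.03 and 3.07 times that of Chst12 in Girk3-null libraries, and 6.91, 8.17 and 3.76 times in wild type libraries. Wild type replicate 3 lay inside the Girk3-null range, and the log2 ratio differed by -0.83 (exact two-sided permutation p = 0.2). Dsel, which converts glucuronic to iduronic acid in dermatan, was lower. It measured 29.5, 30.4 and 31.8 CPM in Girk3-null libraries, against 36.6, 36.1 and 37.3 CPM in wild type libraries. Each group was tight and they did not overlap (log2 fold change -0.26, standard error 0.10, adjusted p = 0.301 in edgeR). Within title numbers below 200 the log2 difference was -0.30 and within those above it was -0.26, and the fitted value without Girk3-null replicate 1 was -0.24. The related epimerase Dse had a log2 fold change of -0.16. The 6-O-sulfotransferase Chst3 had 0.04, with 52.9 CPM in Girk3-null replicate 1 and 30.6 to 30.7 CPM in the other Girk3-null libraries, against 33.9 to 41.9 CPM in wild type libraries. Without Girk3-null replicate 1 the Chst3 value was -0.27 and its groups did not overlap. The remaining members, Chst7, Chst14, Chst15 and Ust, lay between -0.28 and 0.28 (smallest adjusted p = 0.490 in edgeR). In GENCODE M21, 17.9% of the exon bases of Chst15 are shared with Gm10584 on the opposite strand.

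**Figure D3:**
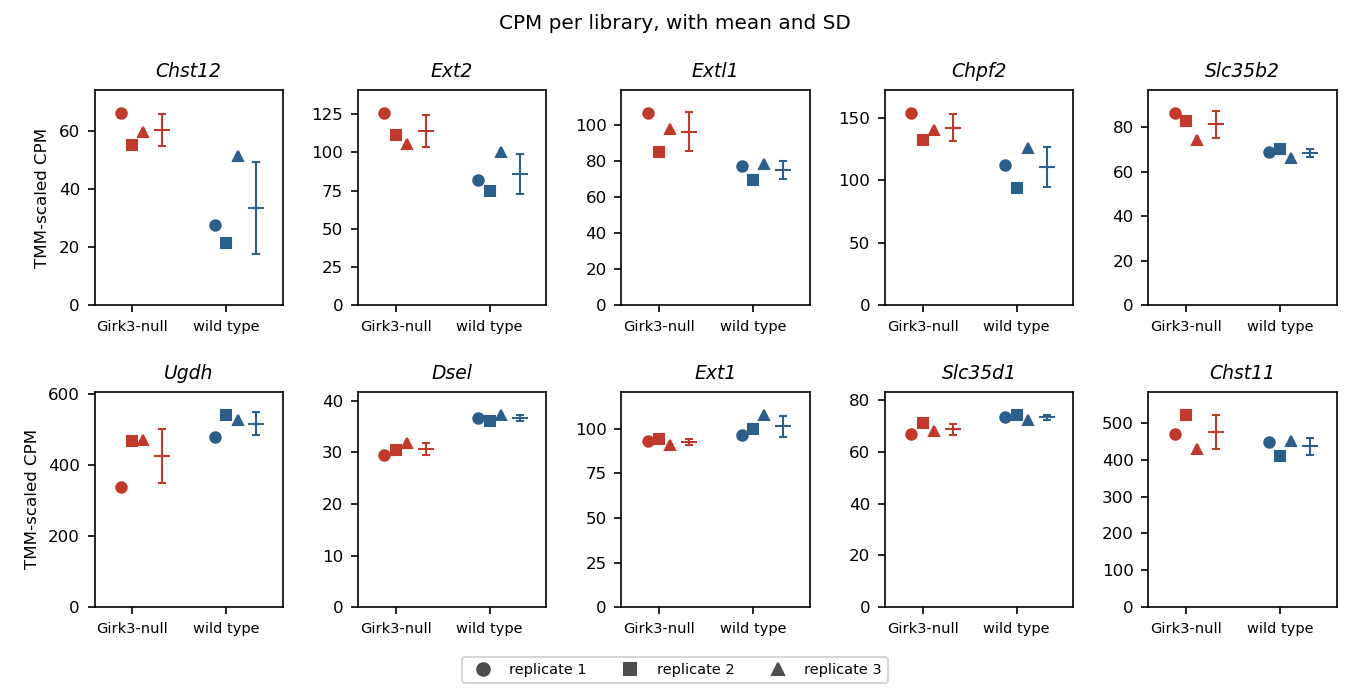
TMM-scaled CPM of 10 genes in each library, Girk3-null left in red and wild type right in blue, with the mean and SD of 3 libraries beside the points. The 9 genes whose groups do not overlap are shown with Chst11, whose groups overlap; in Chst12 wild type replicate 3, at 51.3 CPM, lies near the Girk3-null libraries.

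The enzymes that polymerise heparan were divided. Ext1 and Ext2 form the complex that extends heparan chains. Ext2 (chromosome 2, 93661028 to 93822568, mm10) measured 126, 111 and 106 CPM in Girk3-null libraries, against 81.8, 74.9 and 101 CPM in wild type libraries, with no overlap (log2 fold change 0.41, standard error 0.13, adjusted p = 0.291 in edgeR). Wild type replicate 3 was again the closest to the Girk3-null libraries, and the log2 difference was 0.68 within title numbers below 200 and 0.11 within those above. Without Girk3-null replicate 1 it was 0.34. Ext1 measured 92.8, 94.1 and 90.7 CPM in Girk3-null libraries, against 96.5, 99.8 and 108 CPM in wild type libraries, lower without overlap (log2 fold change -0.13, standard error 0.09, adjusted p = 0.504 in edgeR).

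Within each library the RPKM of Ext1 was 0.669, 0.769 and 0.779 times that of Ext2 in Girk3-null libraries, and 1.07, 1.21 and 0.973 times in wild type libraries. Without overlap, the mean log2 ratio was -0.44 ± 0.12 in Girk3-null and 0.11 ± 0.16 in wild type libraries (SD, n = 3 each). The exact two-sided permutation p was 0.1, the smallest that 3 libraries against 3 can give. Leaving out any library kept the difference of -0.55 between -0.63 and -0.47. Extl1, a relative that can extend heparan chains, measured 107, 84.8 and 97.5 CPM in Girk3-null libraries, against 77.3, 69.4 and 78.1 CPM in wild type libraries, all below the lowest Girk3-null value (log2 fold change 0.36, standard error 0.11, adjusted p = 0.291 in edgeR), and the value was 0.28 without Girk3-null replicate 1. Extl2 and Extl3, which act on the linker at the start of the chain, had log2 fold changes of 0.07 and -0.01.

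The enzymes that modify heparan were negative for 6 of 8, with a median log2 fold change of -0.12, and with every library kept the groups separated for none. Ndst1, which replaces acetyl by sulfate groups and opens the chain to further sulfation, measured 99.1, 103 and 114 CPM in Girk3-null libraries, against 105, 97.0 and 113 CPM in wild type libraries. The fold was 1.01 with a 95% interval of 0.851 to 1.19, and the sign of its log2 fold change (0.01) turned with library totals (-0.10). Without Girk3-null replicate 1 it was 0.05. Glce, the heparan epimerase, measured 70.1, 97.9 and 92.1 CPM in Girk3-null libraries, against 120.1, 123 and 93.2 CPM in wild type libraries. Wild type replicate 3 lay inside the Girk3-null range (log2 fold change -0.37, standard error 0.16, adjusted p = 0.335 in edgeR). Within title numbers below 200 the difference was -0.79 and within those above 0.03, and without Girk3-null replicate 1 the fitted value was -0.24. Hs6st2, an X-linked 6-O-sulfotransferase at low counts, measured 5.11, 7.91 and 6.30 CPM in Girk3-null libraries, against 9.29, 10.4 and 6.30 CPM in wild type libraries. The groups overlapped (log2 fold change -0.43, standard error 0.24, adjusted p = 0.410 in edgeR), and without Girk3-null replicate 1 the value was -0.28.

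The extracellular sulfatases Sulf1 and Sulf2, which remove 6-O-sulfate from heparan at the cell surface, had log2 fold changes of -0.20 and 0.37, which were -0.29 and 0.04 without Girk3-null replicate 1. Without that library the groups of Sulf1 did not overlap. Sulf2 measured 137 CPM in Girk3-null replicate 1 and 82.3 and 72.1 CPM in Girk3-null replicates 2 and 3, against 68.4, 78.3 and 78.6 CPM in wild type libraries. Girk3-null replicate 2 lay just above and replicate 3 inside the wild type range. In GENCODE M21, 2.62% of the exon bases of Sulf2 are shared with Ncoa3 on the opposite strand, which had 49627 counts over all libraries while Sulf2 had 24729. Sulf1 RPKM was 0.481, 0.713 and 0.736 times that of Sulf2 in Girk3-null libraries, and 0.933, 0.789 and 1.01 times in wild type libraries. These groups did not overlap (exact two-sided permutation p = 0.1, the smallest possible), and the mean log2 ratio differed by -0.52, or by -0.32 without Girk3-null replicate 1. Ndst2, Hs2st1 and Hs6st1 had log2 fold changes of -0.15, -0.10 and -0.04.

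Sulfate supply was represented by abundant genes with small differences, 3 of 6 positive, with a median log2 fold change of 0.04. Papss2, the PAPS synthase whose loss causes the brachymorphic phenotype in mice (ENSMUSG00000024899; chromosome 19, 32620005 to 32667187, mm10), measured 314, 454 and 326 CPM in Girk3-null libraries, against 309.9, 328 and 332 CPM in wild type libraries. Only Girk3-null replicate 2 stood above the wild type range. The fold was 1.13 with a 95% interval of 0.886 to 1.44 (adjusted p = 0.594 in edgeR), and the log2 fold change of 0.17 was -0.01 without Girk3-null replicate 2 and 0.27 without Girk3-null replicate 1. Papss1, the other PAPS synthase, had a log2 fold change of 0.13, and Papss2 RPKM was 2.81 to 4.08 times that of Papss1 in Girk3-null and 3.14 to 3.44 times in wild type libraries. The transporters that bring PAPS into the Golgi had differences of opposite sign. Slc35b2 measured 86.3, 82.7 and 74.4 CPM in Girk3-null libraries, against 68.9, 70.0 and 66.2 CPM in wild type libraries. All Girk3-null values were above those of wild type (log2 fold change 0.25, standard error 0.10, adjusted p = 0.315 in edgeR), and the difference was 0.31 within title numbers below 200, 0.24 within those above and 0.20 without Girk3-null replicate 1. Slc35b3 measured 14.9, 17.3 and 19.9 CPM in Girk3-null libraries, against 19.5, 23.0 and 20.6 CPM in wild type libraries. Girk3-null replicate 3 overlapped wild type replicate 1 (log2 fold change -0.28, standard error 0.14, adjusted p = 0.388 in edgeR), and the value was -0.18 without Girk3-null replicate 1.

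Slc35b2 RPKM was 5.52, 4.55 and 3.55 times that of Slc35b3 in Girk3-null libraries, and 3.36, 2.90 and 3.06 times in wild type libraries. These groups did not overlap (exact two-sided permutation p = 0.1, the smallest possible), with a mean log2 ratio of 2.16 ± 0.32 in Girk3-null and 1.63 ± 0.11 in wild type libraries (SD, n = 3 each). The difference of 0.53 was 0.37 without Girk3-null replicate 1. Of 13 such ratios compared, 3 had groups that did not overlap, and of all genes taken singly 20.0% did not. That share is for the CPM of single genes, and none was computed for ratios of other pairs. After Benjamini-Hochberg adjustment over the 13 ratios the smallest exact permutation p was 0.433. Slc26a2, the sulfate transporter of the cell membrane that is mutated in human diastrophic dysplasia, had a log2 fold change of -0.14, with 157 CPM in Girk3-null replicate 1 and 202 to 254 CPM in the other Girk3-null libraries, against 212 to 233 CPM in wild type libraries. Without Girk3-null replicate 1 its sign turned, to 0.02. Impad1, the Golgi phosphatase that clears the spent sulfate donor, had -0.04.

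**Figure D4:**
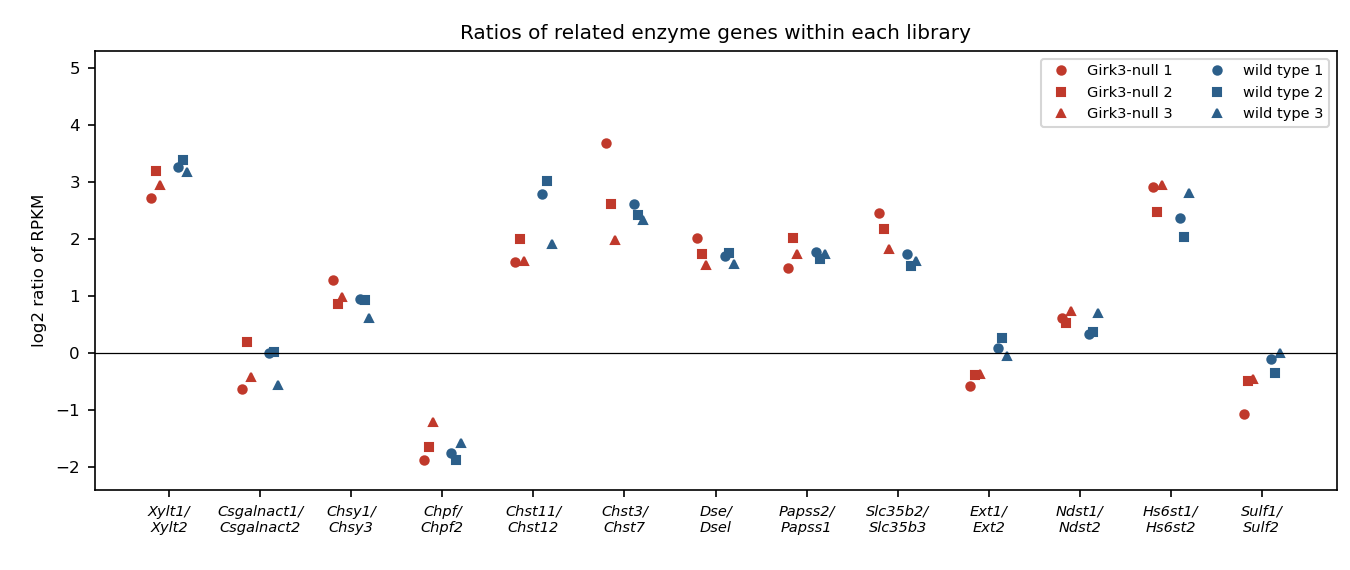
Log2 ratio of the RPKM of 13 pairs of related genes within each library, with Girk3-null in red left of wild type in blue. Slc35b2/Slc35b3, Ext1/Ext2 and Sulf1/Sulf2 have groups that do not overlap; in Chst11/Chst12 wild type replicate 3 lies among the Girk3-null libraries.

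All 3 genes of sugar nucleotide supply had negative log2 fold changes. Ugdh, the dehydrogenase that makes UDP-glucuronic acid (ENSMUSG00000029201; chromosome 5, 65413202 to 65435946, mm10), measured 339, 469.7 and 473 CPM in Girk3-null libraries, against 481, 543 and 528 CPM in wild type libraries. All Girk3-null values were below those of wild type, and Girk3-null replicate 1 was the lowest. The fold was 0.826 with a 95% interval of 0.651 to 1.05 (log2 fold change -0.28, adjusted p = 0.402 in edgeR), and the fitted log2 value was -0.13 without Girk3-null replicate 1. Slc35d1, which carries UDP-glucuronic acid and UDP-N-acetylgalactosamine into the secretory pathway, measured 67.0, 71.0 and 68.2 CPM in Girk3-null libraries, against 73.5, 74.4 and 72.3 CPM in wild type libraries. Again no values overlapped, and the fold of 0.937 had a 95% interval of 0.817 to 1.07 (adjusted p = 0.613 in edgeR). Uxs1, which makes UDP-xylose, had a log2 fold change of -0.09 (standard error 0.11).

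Girk3-null replicate 1 was the extreme library for many members. Of 43 members it held the highest CPM for 14 and the lowest for 15, or 32.6% and 34.9%, while over all genes tested it was highest for 27.8% and lowest for 25.3%. It was lowest of the 6 for Ugdh, Xylt1, Slc26a2, Chsy3 and Glce and highest for Sulf2, Chst3 and Csgalnact2. Among members whose groups did not overlap, it was highest for all that were higher in Girk3-null libraries (Chst12, Ext2, Extl1, Chpf2 and Slc35b2). Of those that were lower, it was lowest for Ugdh, Dsel and Slc35d1 but not for Ext1. It was also the deepest library, the one with Y-linked counts, and the lowest for endothelial markers. The part of these properties in the members' values was not tested.

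Other genes of the pathway, in 6 lists, likewise gave 0 calls in either direction in edgeR, in each list. Proteoglycan core proteins and their relatives, not only carriers of chondroitin or heparan, were positive for 27 of 33, against 51.8% of all genes. Their median log2 fold change was 0.25. Acan and Col9a2 are in this list and also among the chondrocyte markers. Acan, which encodes aggrecan, measured 5963, 9039 and 7968 CPM in Girk3-null libraries, against 5414, 4903 and 8543 CPM in wild type libraries, with overlap (log2 fold change 0.28, adjusted p = 0.604 in edgeR). The smallest p-values there belonged to the proteoglycans Omd, Spock1 and Gpc3, with log2 fold changes of 1.06, 1.24 and -0.88 (adjusted p = 0.291, 0.291 and 0.292 in edgeR). Genes that degrade glycosaminoglycans were positive for 18 of 20, with a median of 0.33, and 10 of 20 had groups that did not overlap, against 20.0% of all genes. Their summed level was 1104, 852 and 792 CPM in Girk3-null libraries, against 739, 736 and 823 CPM in wild type libraries, with overlap. The sum was highest in Girk3-null replicate 1, and the count of 10 is not given without that library. With library totals alone the medians of core proteins and degradation genes were 0.14 and 0.23. Cemip, which breaks down hyaluronan, measured 89.5, 57.5 and 60.8 CPM in Girk3-null libraries, against 37.6, 34.0 and 53.2 CPM in wild type libraries (log2 fold change 0.74, adjusted p = 0.291 in edgeR). The lysosomal enzymes Sgsh and Idua had 0.62 each (adjusted p = 0.291 in edgeR).

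Medians were 0.20 for 5 other heparan enzymes, 0.05 for 10 keratan sulfate enzymes, 0.03 for 16 other genes of precursor supply and 0.24 for 10 genes of Golgi homeostasis. With library totals alone, the keratan sulfate and precursor supply medians turned to -0.05 and -0.08. Hs3st3a1, a heparan 3-O-sulfotransferase at a mean of 0.671 RPKM, measured 3.98, 3.12 and 3.68 CPM in Girk3-null libraries, against 1.82, 1.58 and 1.88 CPM in wild type libraries. Its groups did not overlap (log2 fold change 1.03, adjusted p = 0.291 in edgeR). B4galt1, a galactosyltransferase of keratan and other glycans, measured 121, 125 and 134 CPM in Girk3-null libraries, against 150.01, 142 and 154 CPM in wild type libraries (log2 fold change -0.23, adjusted p = 0.326 in edgeR). Slc35a2, the UDP-galactose transporter, had 0.44, and Cant1, a Golgi nucleotidase that acts in proteoglycan synthesis, had 0.43 (adjusted p = 0.299 and 0.325 in edgeR). The same libraries gave medians of 0.56 for chondrocyte, -1.12 for endothelial, -1.14 for skeletal muscle, -1.12 for erythroid, -0.16 for macrophage and leukocyte, -0.26 for stromal fibroblast and -0.89 for proliferation markers, and their part in these values was not tested.

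**Figure D5:**
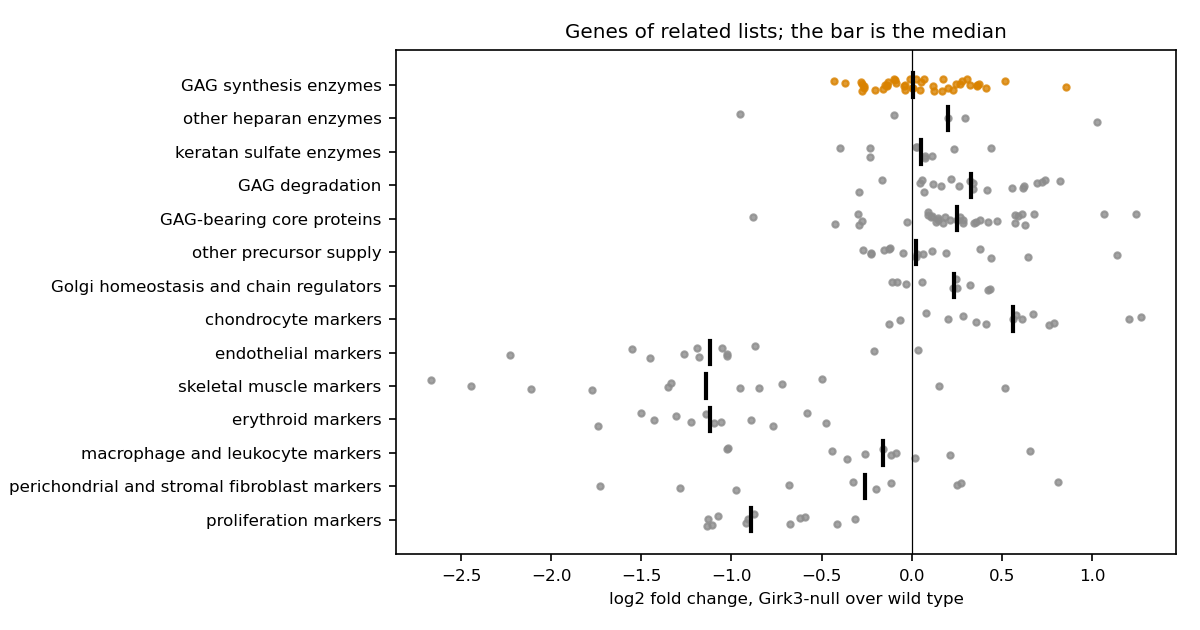
Log2 fold change, Girk3-null over wild type, of each tested gene of the glycosaminoglycan synthesis set (orange) and of the other lists (grey), with the median of each list as a bar. The set centres on 0.01, chondrocyte markers on 0.56 and endothelial markers on -1.12.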

How the data were processed

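Samples were grouped by the genotype label and numbered in deposit order. Per the labels' protocols, polyadenylated RNA was made into TruSeq libraries. The submitters' processing notes name bcl2fastq 2.19.0, STAR 2.5.2b and build mm10; which tool counted the reads, and with which strand setting, is not given in the sources used here. Raw counts and RPKM are deposited per gene, per the file headers, and the authors corrected RPKM for gene length and library total, per the labels' protocols. RPKM therefore moves with the share of reads taken by Col2a1.

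Counts were tested with edgeR 4.0.16 in R 4.3.3 (quasi-likelihood, genotype alone, TMM, filterByExpr with minimum count 10 and total 15) and Benjamini-Hochberg adjustment over all 17554 genes kept. The standard error is the log2 fold change over the root of F. Alternatives were DESeq2 1.42.0, limma-voom (limma 3.58.1), limma on log2(RPKM + 0.1) and log2(RPKM + 1), other scalings, no filter, a title number term and each library left out. The fit was tested on simulated data.

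Values in full were given, per role, for the member with the highest RPKM and the 2 with the smallest p, and for members without overlap at an absolute log2 fold change of at least 0.5. Up to 3 genes with the smallest p were drawn from each other list. Acan, Ext1, Chst3, Fam20b, Sulf2 and Slc26a2 were added after their values were seen. The members and lists were chosen with earlier results of these data known.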

Additional observations from a re-analysis of the deposited data

How the results depend on the processing

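The count of members passing was 0 in every alternative run except without wild type replicate 3, and leaving out each library gave 0 to 1. The count over all genes was 1, against 0 with library totals, with a title number term, with limma-voom and on both RPKM scales, 53 with no filter, 358 in DESeq2, and 0 to 74 without each library. The members' median log2 fold change of 0.01 was -0.10 with library totals, -0.11 on log2(RPKM + 0.1), -0.094 on log2(RPKM + 1), and -0.05 to 0.04 without each library. The median of all tested genes was then -0.09, -0.09 and -0.05 in these 3 scalings. Members with groups that did not overlap numbered 9, and 14 without Girk3-null replicate 1, an alternative chosen after seeing the data.

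Among 19 named members, 18 values in 4 genes reversed sign. With library totals, log2(RPKM + 0.1) and log2(RPKM + 1), Chsy1 was -0.060, -0.056 and -0.055, Ndst1 was -0.10, -0.10 and -0.094, and Xylt1 was -0.079, -0.091 and -0.089. With the title number term Ndst1 was -0.042 and Xylt1 was -0.11, and in DESeq2 Ndst1 was -0.00092. Without each library Ndst1 ran from -0.052 to 0.067, Xylt1 from -0.093 to 0.16 and Papss2 from -0.014 to 0.27. Of all 43 tested members, 7 reversed sign without Girk3-null replicate 1, the largest of them 0.14 in size before. Without each library the difference in log2 ratio ran from -0.029 to 0.30 for Chpf/Chpf2, -0.16 to 0.69 for Chst3/Chst7, -0.35 to 0.068 for Csgalnact1/Csgalnact2, -0.029 to 0.21 for Dse/Dsel and -0.11 to 0.16 for Papss2/Papss1. The cause was not tested. Depth limits the genes at the lowest counts, Chst13 above all. No paired analysis was possible because the labels give the groups no shared replicate numbers.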
